A study of Mus musculus with 20 samples.

Results

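The genes Fasn, Elovl6, Scd1 and Fads1 encode enzymes that make, lengthen and desaturate fatty acids. They were taken by name from the authors' 4 tables of differentially expressed genes. These 4 genes are among 6261 genes with counts in any of the tables. RNA was sequenced from AML-12 cells, a mouse hepatocyte line derived from mice carrying a transforming growth factor alpha transgene. There were 4 groups of 5 libraries. Wild-type cells and Ripk3-/- cells were either untreated or exposed for 24 h to palmitate at 125 µM, complexed with bovine serum albumin. Ripk3 encodes a kinase of the necroptosis pathway. The labels name no group given albumin alone, so palmitate and its carrier cannot be told apart. They also do not say whether the Ripk3-/- line is 1 clone or whether the 5 libraries came from separate cultures, and p-values then measure only the spread between these libraries. Differences between the genotypes are differences between 2 lines.

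Fatty acid synthase (Fasn) builds palmitate from acetyl-CoA and malonyl-CoA. Elovl6 lengthens palmitoyl-CoA to stearoyl-CoA, Scd1 places the double bond that turns stearoyl-CoA into oleoyl-CoA, and Fads1 is the desaturase that makes arachidonate and eicosapentaenoate from their polyunsaturated precursors. In the liver these genes are induced together by insulin and carbohydrate feeding through sterol regulatory element-binding proteins and the liver X receptor, and polyunsaturated fatty acids lower their transcription.

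In the mm10 coordinates of the authors' tables, Fasn (ENSMUSG00000025153) lies on chromosome 11 from 120805846 to 120824547 on the minus strand. Elovl6 (ENSMUSG00000041220) lies on chromosome 3 from 129532355 to 129638495 on the plus strand. Scd1 (ENSMUSG00000037071) and Fads1 (ENSMUSG00000010663) lie on chromosome 19, from 44394451 to 44407709 on the minus strand and from 10182888 to 10196870 on the plus strand. None of them is on chromosome 14, which holds Ripk3. The RefSeq promoter table, build GRCm38.p6, matched 2 of the 4 genes, Fasn and Elovl6, and the other two are named only. These sequences are shown because both genes were higher in Ripk3-/- cells with and without palmitate. They run from 250 bases before to 50 bases after the annotated start, 5′ to 3′ on the gene's strand, with capitals marking matches to the CCAAT box on either strand. The Fasn window is chr11:120824498-120824797 (minus strand) and the Elovl6 window is chr3:129532136-129532435 (plus strand).
Fasn: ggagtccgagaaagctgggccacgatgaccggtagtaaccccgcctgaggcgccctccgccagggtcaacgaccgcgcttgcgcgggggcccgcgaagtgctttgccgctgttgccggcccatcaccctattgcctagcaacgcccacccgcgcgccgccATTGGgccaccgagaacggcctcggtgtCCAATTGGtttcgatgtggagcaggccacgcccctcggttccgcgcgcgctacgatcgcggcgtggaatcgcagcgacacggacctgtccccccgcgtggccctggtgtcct
Elovl6: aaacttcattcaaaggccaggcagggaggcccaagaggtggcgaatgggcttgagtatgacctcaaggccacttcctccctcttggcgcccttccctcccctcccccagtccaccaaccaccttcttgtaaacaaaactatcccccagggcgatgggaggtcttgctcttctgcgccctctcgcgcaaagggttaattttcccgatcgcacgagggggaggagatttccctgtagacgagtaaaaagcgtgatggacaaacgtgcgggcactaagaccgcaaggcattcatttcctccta
The Fasn window held 3 matches to CCAAT, at bases 161 to 165 and 192 to 196 as the reverse complement and at bases 189 to 193 as printed, and the last pair share letters. The Elovl6 window held none. CCAAT, the box bound by NF-Y, was present in 37.4% of 32851 RefSeq promoter windows of the same length. Neither window matched GGGCGG (Sp1 box, in 35.7% of windows), TCACNCCAC (a sterol regulatory element, 1.24%), CACGTG (E-box, 7.15%) or the nuclear receptor direct repeat DR1 (0.0396%), searched on both strands. No match says only that these letters are not in these windows. GC content was 69.3% in the Fasn window and 55.7% in the Elovl6 window.

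Library totals, worked out from read counts and FPKM (fragments per kilobase, scaled to library size), were 21218794 to 30100704. They followed the authors' size factors to within 0.448%, so they may not be raw read totals. Replicates differed by more than sampling noise in all 40 pairs within groups, and pairs with untreated Ripk3-/- replicate 1 differed most (chi-square per degree of freedom 28.2 to 38.7, against at most 13.8 in the other pairs). Ripk3 was 17.7 ± 5.42 normalised reads (SD, n = 5) in untreated wild-type cells and 4.57 ± 2.96 in untreated Ripk3-/- cells, a log2 fold change of -1.90 with an edgeR adjusted p of 0.00486. The treated groups held 22.1 ± 3.36 and 6.49 ± 4.01 (-1.79, edgeR adjusted p = 0.000209). The tables gave values in all 20 libraries for 4 of 12 hepatocyte markers, 3 of 6 cholangiocyte markers, 1 of 8 mesenchymal markers and 1 of 6 leukocyte markers, each above 0 in every library, and listed none of 5 adipocyte or 5 endothelial markers. The summed hepatocyte markers (Alb, Trf, Serpina1a, Fgb) ranged from 18.2 to 24.4 FPKM in untreated wild-type, 23.7 to 28.5 in treated wild-type, 21.2 to 40.2 in untreated Ripk3-/- and 37.3 to 46 in treated Ripk3-/- libraries. Albumin itself was low, with group means of 3.16 to 6.1 FPKM. The cholangiocyte markers (Krt19, Sox9, Spp1) summed to 772 to 886, 967 to 1014, 969 to 1072 and 1110.3 to 1189 FPKM in the same order. The cholangiocyte sum was higher in every treated library than in the untreated libraries of its genotype, and higher in every Ripk3-/- library than in wild-type libraries of the same treatment, but its genes did not move together. Spp1 was called higher in all 4 comparisons, whereas Krt19 fell with palmitate in wild-type cells (-0.15) and was higher in Ripk3-/- cells (0.41 and 0.48), and Sox9 was lower in Ripk3-/- cells (-0.23 and -0.18). The hepatocyte genes also moved both ways: Alb rose with palmitate (0.80 and 0.78), Trf was higher in Ripk3-/- cells (0.74 and 0.80) and Fgb lower there (-1.11 and -0.67). Ttr, outside the sum for want of values in every library, had 371 to 481 FPKM where measured, fell with palmitate in wild-type cells (-0.21) and was higher in treated Ripk3-/- cells (0.38). The macrophage gene Cd68 rose with palmitate in both genotypes (0.80 and 0.77), from 0.949 to 1.28 FPKM untreated to 1.64 to 2.02 treated in wild-type libraries. Desmin (Des), between 0.0664 and 0.384 FPKM, was higher in Ripk3-/- cells (0.84 and 1.07). These values are log2 fold changes of genes called by edgeR, and the part of these markers in the results below was not tested.

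A gene is called here when edgeR's quasi-likelihood test on the read counts of its table gave an adjusted p under 0.05, with the adjustment over every gene the authors tested. Levels are normalised read counts, divided by 1 size factor per library on a scale shared by all 20 libraries. In such bulk samples, fewer cells of a type and less RNA per cell cannot be told apart.

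Fasn, the synthase, had nearly equal levels with and without palmitate and was 17.4% higher in untreated Ripk3-/- than in untreated wild-type cells. In untreated wild-type cells replicates 1 to 5 held 21486, 21610.3, 19601, 21675 and 20065 normalised reads (mean 20888 ± 979, SD). With palmitate the wild-type libraries held 20616, 21121, 21512, 22015 and 21328.5 (21319 ± 514). These 2 groups overlapped. Untreated Ripk3-/- libraries held 24611, 24098, 25431, 27071 and 21428 (24528 ± 2066), and those with palmitate held 24169, 25261, 24791, 24939.6 and 23696 (24571 ± 629.8). Untreated Ripk3-/- replicate 5 was below 3 untreated wild-type libraries, and the other four lay above every untreated wild-type library. With palmitate every Ripk3-/- library was above every wild-type library.

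The genotype difference in Fasn was called in both treatments. In untreated cells its log2 fold change was 0.23 (SE 0.05, edgeR adjusted p = 0.0111), where an exact two-sided permutation test over the 10 libraries gave p = 0.0317. The treated lines differed by 0.21 (SE 0.02, edgeR adjusted p = 2.14e-06, exact permutation p = 0.00794, the smallest that 5 against 5 libraries allow). The authors did not list Fasn for palmitate in either genotype. A fit over all 20 libraries gave 0.03 in wild-type cells (95% interval -0.06 to 0.12, edgeR adjusted p = 0.65) and 0.00 in Ripk3-/- cells (-0.09 to 0.10, edgeR adjusted p = 0.973). These intervals leave room for a change of about 0.1 in either direction on the log2 scale.

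**Figure D1:**
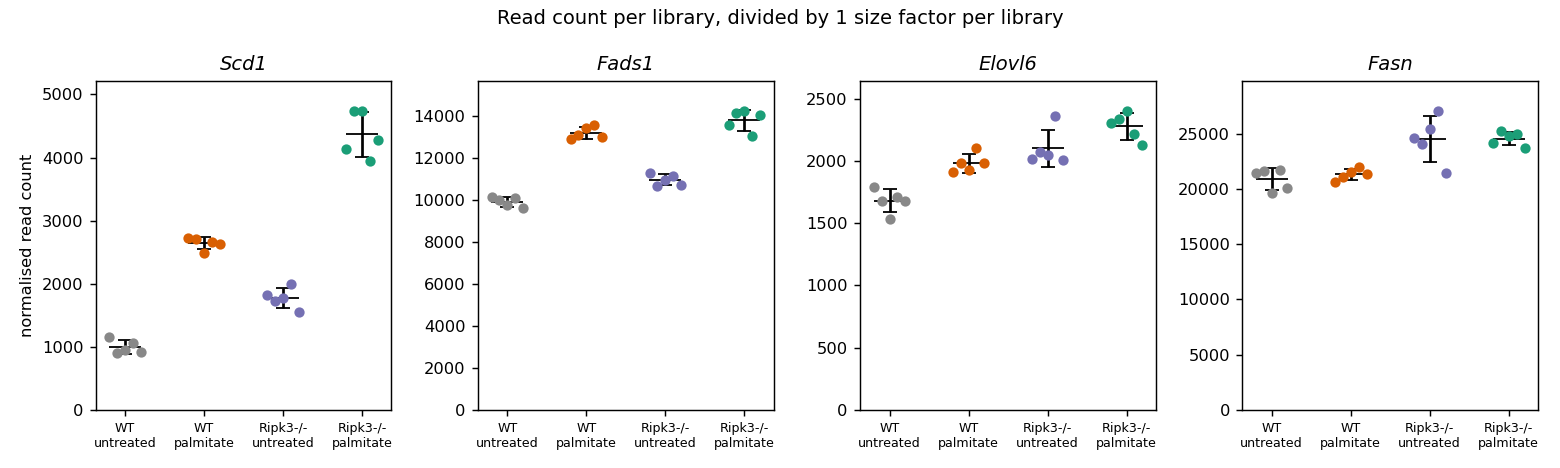
Normalised read count (y axis, from 0) of each gene in each of the 20 libraries, by group. Points are libraries, the horizontal mark is the group mean and the bars are 1 SD (n = 5). Scd1 forms 4 separate groups, while Fasn splits by genotype with 1 untreated Ripk3-/- library, replicate 5, at the wild-type level.

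Elovl6, the elongase, was higher in Ripk3-/- cells in both treatments and rose with palmitate in wild-type cells. Untreated wild-type replicates 1 to 5 held 1793, 1681, 1537, 1713 and 1677 normalised reads (1680.3 ± 92.7). With palmitate they held 1913, 1982, 1933, 2106 and 1987 (1984 ± 75.2). All 5 treated libraries lay above all 5 untreated ones. Untreated Ripk3-/- libraries held 2016, 2077, 2049, 2363 and 2009.7 (2103 ± 148), and those with palmitate 2309, 2336, 2405, 2222 and 2131 (2281 ± 106). Replicate 4 of the untreated Ripk3-/- group, at 2363, stood apart from the other four and lay inside the range of the treated group.

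In wild-type cells palmitate raised Elovl6 by 0.24 on the log2 scale (SE 0.04, edgeR adjusted p = 0.000395, exact permutation p = 0.00794). The authors did not list it for palmitate in Ripk3-/- cells. There the fit over 20 libraries gave 0.12 (95% interval 0.02 to 0.22, edgeR adjusted p = 0.0452) and the exact permutation test p = 0.0714. That call was lost with TMM scaling (0.084, edgeR adjusted p = 0.161) and in 13 of the 20 fits that left out 1 library, while without untreated Ripk3-/- replicate 4 the value was 0.16 (edgeR adjusted p = 0.00279). The genotype difference was 0.32 without palmitate (SE 0.05, edgeR adjusted p = 0.000766) and 0.20 with it (SE 0.04, edgeR adjusted p = 0.000187), with groups that did not overlap in either. Without replicate 4 the untreated difference was 0.28 (edgeR adjusted p = 0.0011). Treated wild-type and untreated Ripk3-/- cells, neighbours in the order of levels, overlapped.

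Scd1, the stearoyl-CoA desaturase, differed most among the 4 genes. Untreated wild-type replicates 1 to 5 held 1161, 905, 949, 1057 and 909 normalised reads (996 ± 111), and with palmitate 2721, 2707, 2491, 2659.9 and 2636 (2643 ± 91.6). The treated mean was 2.65-fold the untreated one. Untreated Ripk3-/- libraries held 1825, 1729.5, 1777, 2001 and 1557 (1778 ± 161), and with palmitate 4141, 4736, 4739.6, 3949.7 and 4278 (4369 ± 356). The treated mean was 2.46-fold the untreated one. The order was untreated wild-type, untreated Ripk3-/-, treated wild-type and treated Ripk3-/-, and no neighbouring groups in this order overlapped. From the lowest to the highest group the means differed 4.39-fold, against 1.39-fold for Fads1, 1.36-fold for Elovl6 and 1.18-fold for Fasn between the same groups.

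Palmitate raised Scd1 by 1.41 on the log2 scale in wild-type cells (SE 0.06, edgeR adjusted p = 1.16e-10) and by 1.30 in Ripk3-/- cells (SE 0.06, edgeR adjusted p = 2.28e-08). By absolute log2 fold change it ranked 31 of the 2174 genes listed in wild-type and 19 of the 1316 listed in Ripk3-/- cells. Ripk3-/- cells had more Scd1 RNA by 0.84 without palmitate (SE 0.08, edgeR adjusted p = 1.43e-05) and by 0.73 with it (SE 0.05, edgeR adjusted p = 6.76e-08). The exact permutation p was 0.00794 in all 4 comparisons. Of the 50-base windows of Scd1 transcripts, 4.56% also occur in transcripts of Scd2, Scd3, Scd4 or AC123853.3, and how reads that match several genes were counted is not given in the sources used here. For Elovl6 this share was 3.98%, and for Fads1 and Fasn it was 0. Elovl6 also overlaps the antisense gene Gm35986 over 34 bases and Gm43072 on its own strand over 1671 bases, and no strand setting is given in the sources used here.

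Fads1, the desaturase of polyunsaturated chains, rose with palmitate in both genotypes. Untreated wild-type replicates 1 to 5 held 10145, 9962, 9726, 10092 and 9607 normalised reads (9906 ± 233), and with palmitate 12878, 13059, 13407, 13555 and 13001 (13179.9 ± 288). Untreated Ripk3-/- libraries held 11270.0, 10671, 10932, 11126 and 10692 (10938 ± 263), and with palmitate 13553, 14115, 14224, 13022 and 14007 (13784 ± 497). Both untreated groups lay below both treated groups. The untreated genotypes were separate, and the treated ones overlapped.

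The palmitate log2 fold change of Fads1 was 0.41 in wild-type cells (SE 0.03, edgeR adjusted p = 5.8e-09) and 0.33 in Ripk3-/- cells (SE 0.03, edgeR adjusted p = 9.95e-06). Without palmitate the genotype difference was 0.14 (SE 0.03, edgeR adjusted p = 0.00863, exact permutation p = 0.00794). With palmitate the authors did not list it. The fit over 20 libraries gave 0.06 (95% interval 0.01 to 0.12, edgeR adjusted p = 0.0386), the exact permutation test p = 0.0556, and the call was lost with TMM scaling (edgeR adjusted p = 0.0558) and in 6 of the 20 fits that left out 1 library.

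**Figure D2:**
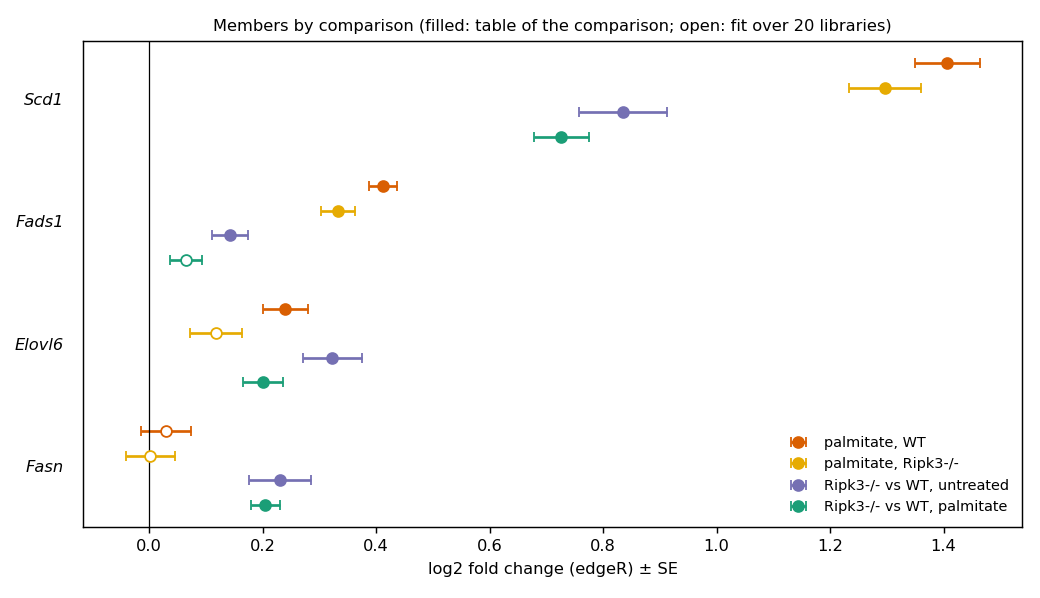
Log2 fold change (x axis) of each gene in the 4 comparisons, with bars of 1 SE. Filled points come from the table of that comparison and open points from the fit over 20 libraries. Scd1 has the largest value in every comparison, from 0.73 to 1.41, and Fasn lies at 0.03 and 0.00 for palmitate.

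By comparison, palmitate in wild-type cells gave calls for 3 of the 4 genes, all higher, where 14.6% of the genes tested were called and 8.4% were called higher. Palmitate in Ripk3-/- cells gave 2 higher, Scd1 and Fads1, where 7.56% were called and 4.41% higher. Genotype without palmitate gave all 4 higher, where 14.5% were called and 7.08% higher. Genotype with palmitate gave 3 higher, without Fads1, where 24.2% were called and 12.1% higher. Groups did not overlap for all of these calls but that of Fasn without palmitate. Among the listed genes the share without overlap was 70.1% for palmitate in wild-type cells and 66.1% in Ripk3-/- cells. It was 57% for the untreated genotypes and 70.5% for the treated ones. In the fit over 20 libraries, which holds genes listed often, 42% of 2993 genes were called for palmitate in wild-type cells, 40.2% in Ripk3-/- cells and 79.5% for genotype with palmitate, so the marginal calls of Elovl6 and Fads1 there are near the background. The palmitate comparisons and the genotype comparisons share groups, and their values are therefore not independent.

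The test of whether palmitate acted differently in the 2 genotypes is the interaction in the fit over 20 libraries. The palmitate effect in Ripk3-/- minus that in wild-type cells was -0.11 for Scd1 (95% interval -0.32 to 0.10) and -0.12 for Elovl6 (-0.26 to 0.02). It was -0.08 for Fads1 (-0.16 to 0.01) and -0.03 for Fasn (-0.16 to 0.10). The edgeR adjusted p was 0.871 for Fads1, 0.919 for Elovl6 and 0.991 for Scd1 and Fasn. A difference was thus not detected for any of the 4, and the interval for Scd1 still includes a smaller rise in Ripk3-/- cells by 0.32 on the log2 scale. Over the genes in that fit edgeR called 0 of 2993, with 172 (5.75%) at an unadjusted p under 0.05. limma called 0 and DESeq2 called 6 (0.2%), none of them in the fatty acid lists. Only 30 of the 77 genes of these lists were in the fit, so the rest could not be called. A gene without counts in all 20 libraries has no value here.

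Per length, Fads1 was the most abundant of the 4 RNAs, followed by Fasn. Mean FPKM in untreated wild-type, treated wild-type, untreated Ripk3-/- and treated Ripk3-/- cells was 115, 153, 127 and 160 for Fads1 and 76.4, 77.9, 89.8 and 89.9 for Fasn. It was 10.5, 12.3, 13.1 and 14.2 for Elovl6 and 8.25, 21.9, 14.7 and 36.2 for Scd1. Fads1 exceeded Fasn in all 20 libraries. Scd1 and Elovl6 changed places: the Scd1 to Elovl6 ratio of FPKM was 0.788 ± 0.066 (SD, n = 5) in untreated wild-type cells, below 1 in every library. It was 1.77 ± 0.084 in treated wild-type, 1.12 ± 0.064 in untreated Ripk3-/- and 2.55 ± 0.16 in treated Ripk3-/- cells, above 1 in every library. The ratio of Fads1 to Fasn was 1.5 ± 0.044 and 1.96 ± 0.019 in untreated and treated wild-type cells, and 1.42 ± 0.105 and 1.78 ± 0.081 in the Ripk3-/- cells.

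**Figure D3:**
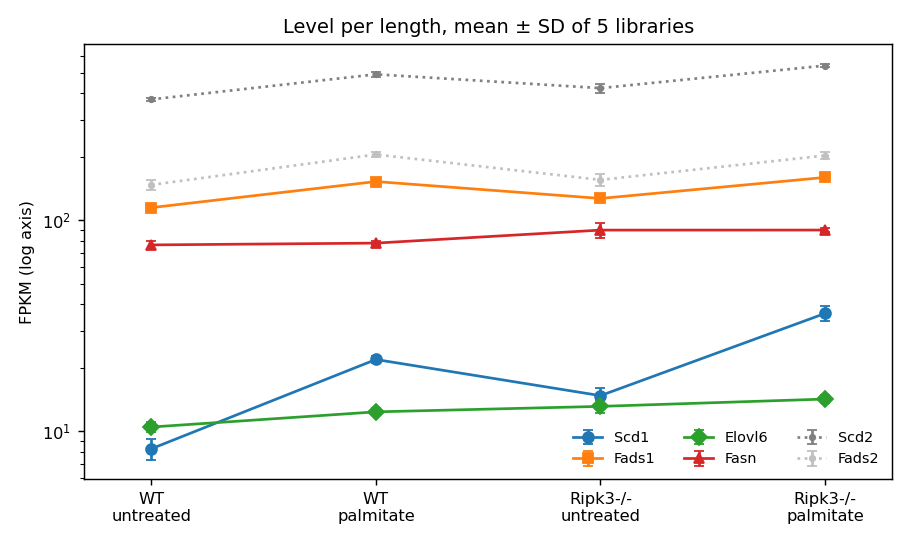
FPKM (y axis, log scale) by group for the 4 genes and, dotted, for Scd2 and Fads2, as means with bars of 1 SD (n = 5). Scd1 is the lowest in untreated wild-type cells at 8.25 FPKM and lies above Elovl6 in the other three groups, far below its paralogue Scd2 in all of them.

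In untreated Ripk3-/- cells Scd1, Elovl6 and Fasn had their highest and their lowest library in common, which held in no other group. In treated wild-type cells replicate 1 was the highest for Scd1 (103%) and the lowest for Fads1 (97.7%), Elovl6 (96.4%) and Fasn (96.7%). Untreated Ripk3-/- replicate 4 was the highest of its group for Scd1, Elovl6 and Fasn, at 113%, 112% and 110% of the group mean, and replicate 5 was the lowest for the same genes, at 87.6%, 95.6% and 87.4%. For Fads1 these libraries were at 102% and 97.8%. The library that stood apart over the listed genes with counts in this group, replicate 1, was at 103%, 103%, 95.8% and 100.3% for Scd1, Fads1, Elovl6 and Fasn. Without it the untreated genotype differences were 0.82, 0.13, 0.34 and 0.23 in the same order, all still called.

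The pathway around the 4 genes was described with 7 lists of 77 genes, of which 47 were in any table. Palmitate in wild-type cells gave calls for 25 genes higher and 3 lower, including 3 of the 4 genes above. The other 73 genes gave 22 higher and 3 lower. The 28 called are 36.4% of the lists, where 8.4% of all genes tested were called higher and 6.25% lower. The median log2 fold change of listed pathway genes was 0.19, against 0.12 for all listed genes. Scaling mattered here. TMM and DESeq2 size factors, both worked out over the listed genes only, kept 17 and 16 of the 28 calls. No called gene changed sign. Library totals kept all 28, but they follow the authors' size factors to within 0.448%. In Ripk3-/- cells 16 were called higher and 1 lower with palmitate (median 0.22 against 0.16), where 4.41% and 3.15% of all genes tested were called in these directions. Of these 17 genes 13 kept the call with TMM and 11 with DESeq2 size factors. Without the 4 genes above, the other 73 gave 14 higher and 1 lower in Ripk3-/- cells. The genotype comparison gave 11 higher and 4 lower without palmitate (median 0.16 against 0.10), where 7.08% and 7.42% of all genes were called. These 11 include all 4 genes above. The other 73 genes gave 7 higher and 4 lower, where 14.5% of all genes tested were called in either direction. With palmitate the genotype comparison gave 21 higher and 8 lower (0.13 against 0.06), where 12.1% of all genes were called in each direction. The other 73 genes gave 18 higher and 8 lower there. Without untreated Ripk3-/- replicate 1 the pathway counts were 15 for palmitate in Ripk3-/- cells and 15 for genotype without palmitate.

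Among the genes that supply citrate, acetyl-CoA and NADPH, 4 of 7 rose with palmitate in wild-type and 3 in Ripk3-/- cells, and none fell. They are 57.1% and 42.9% of the list, where 14.6% and 7.56% of all genes tested were called. Acss2, which makes acetyl-CoA from acetate, rose by 0.36 (SE 0.10) and 0.48 (SE 0.10) on the log2 scale. The citrate carrier Slc25a1 rose by 0.21 (SE 0.04) in wild-type cells, where the NADPH-producing G6pdx rose by 0.16 (SE 0.04). Pgd, the next enzyme of the pentose phosphate pathway, rose by 0.13 (SE 0.03) in wild-type and 0.15 (SE 0.04) in Ripk3-/- cells. These calls depended on whether scaling was worked out over the listed genes. With either TMM or DESeq2 size factors only Slc25a1 kept its call in wild-type cells, where Acss2 had an edgeR adjusted p of 0.0537 and 0.0704, and only Acss2 kept it in Ripk3-/- cells.

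The list of malonyl-CoA metabolism and the synthase, which holds Fasn, had 0 of 7 genes listed for palmitate in either genotype. Of all genes tested, 15.8% were listed for palmitate in wild-type and 10.2% in Ripk3-/- cells. A list this short cannot tell 0 from these shares, and only 4 of its genes were in any table. For genotype 2 were called higher without palmitate and 4 with it, Fasn among them. They are 28.6% and 57.1% of the list, where 14.5% and 24.2% of all genes tested were called. Acaca, the acetyl-CoA carboxylase that makes malonyl-CoA for Fasn, was higher in Ripk3-/- cells by 0.22 (SE 0.04) and 0.16 (SE 0.03). Aacs, which activates acetoacetate, and the malonyl-CoA decarboxylase Mlycd were listed for genotype with palmitate and not without it, higher by 0.19 (SE 0.05) and 0.14 (SE 0.04). Whether these differences depend on palmitate was not tested.

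Of 13 elongation genes, 4 were called higher with palmitate in wild-type and 2 in Ripk3-/- cells. They are 30.8% and 15.4% of the list, where 14.6% and 7.56% of all genes tested were called. With TMM or DESeq2 size factors Elovl5 and Elovl6 kept the call in wild-type cells and Elovl5 in Ripk3-/- cells, while Tecr lost it in both and Hsd17b12 in wild-type cells. Elovl5, the elongase of polyunsaturated chains, rose by 0.21 (SE 0.03) and 0.25 (SE 0.04), and unlike Elovl6 was not listed for genotype. Elovl7 was higher in Ripk3-/- cells by 0.20 (SE 0.05) and 0.23 (SE 0.04). Hacd3, a dehydratase of the elongation cycle, was lower there by the fold changes -0.30 (SE 0.04) and -0.35 (SE 0.03).

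Among 11 desaturation genes 5 rose and 1 fell with palmitate in wild-type cells, and 4 rose and 1 fell in Ripk3-/- cells. For genotype 3 were higher and 0 lower without palmitate, and 4 were higher and 3 lower with it. In this order the calls were 54.5%, 45.5%, 27.3% and 63.6% of the list. Of all genes tested 14.6%, 7.56%, 14.5% and 24.2% were called. Fads2, which acts before Fads1 on the same polyunsaturated chains, rose by 0.48 (SE 0.03) and 0.39 (SE 0.04). Scd2, the paralogue of Scd1, rose by 0.40 (SE 0.03) and 0.36 (SE 0.04) and was higher in Ripk3-/- cells by 0.18 (SE 0.04) and 0.14 (SE 0.02). Its level was 45.4 times that of Scd1 in FPKM in untreated wild-type cells, and 22.5, 28.7 and 15 times in treated wild-type, untreated Ripk3-/- and treated Ripk3-/- cells. The gene that fell with palmitate was Fads3 (-0.09, SE 0.02, and -0.14, SE 0.03), named after its values were seen. Scd1, Scd2, Fads1, Fads2 and Fads3 all lie on chromosome 19.

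Of 7 acyl-CoA activation genes, the 5 that were in any table were all called higher with palmitate in both genotypes. They are 71.4% of the list, where 14.6% and 7.56% of all genes tested were called. With TMM 4 kept the call in each genotype. With DESeq2 size factors 4 kept it in wild-type and 3 in Ripk3-/- cells. Dbi was lost in wild-type cells under both scalings (edgeR adjusted p = 0.0587 and 0.103), Acsl5 in Ripk3-/- cells under both (0.118 and 1), and Acsl3 there with DESeq2 size factors (0.0689). The acyl-CoA synthetases Acsl1 (0.46, SE 0.05, and 0.42, SE 0.06), Acsl4 (0.44, SE 0.03, and 0.33, SE 0.04) and Acsl3 (0.27, SE 0.03, and 0.21, SE 0.04) activate free fatty acids, and Dbi (0.19, SE 0.05, and 0.30, SE 0.06) binds the acyl-CoA formed. Acsl4 was also higher in Ripk3-/- cells, by 0.25 (SE 0.05) without and 0.13 (SE 0.03) with palmitate.

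Of 20 regulators 10 were in any table. With palmitate 5 were called higher and 2 lower in wild-type cells, and 2 higher and 0 lower in Ripk3-/- cells. For genotype 1 was higher and 1 lower without palmitate, and 3 were higher and 3 lower with it. The palmitate calls were 35% of the list in wild-type and 10% in Ripk3-/- cells, where 14.6% and 7.56% of all genes tested were called. The genotype calls were 10% without and 30% with palmitate, against 14.5% and 24.2% of all genes tested. Srebf1, which encodes the transcription factor that drives the lipogenic genes, rose with palmitate by 0.26 (SE 0.03) in wild-type and 0.22 (SE 0.03) in Ripk3-/- cells, and was not listed for genotype. Mlxipl, the carbohydrate response element-binding protein, rose by 0.18 (SE 0.06) in wild-type cells and was lower in Ripk3-/- cells, at -0.42 (SE 0.08) and -0.43 (SE 0.07). Scap, the escort of the sterol regulatory element-binding proteins, was 0.13 (SE 0.03) higher with palmitate in wild-type cells and differed by -0.27 (SE 0.03) between treated genotypes. The wild-type palmitate calls of both Mlxipl and Scap were lost with TMM (edgeR adjusted p = 0.238 and 0.248) and with DESeq2 size factors (0.372 and 0.507). Prkaa2, a catalytic subunit of AMP-activated kinase, was higher by 0.46 (SE 0.05) in treated Ripk3-/- cells. Without palmitate it was listed but not called (0.29, SE 0.10, edgeR adjusted p = 0.0614). Its interaction, 0.17, was not called either (edgeR adjusted p = 0.964).

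Of 12 glycerolipid assembly genes none was called with palmitate in Ripk3-/- cells, where 7.56% of all genes tested were called. In wild-type cells 2 rose with palmitate (16.7% of the list), where 14.6% of all genes tested were called. These were the acyltransferase Gpam, by 0.11 (SE 0.03), and Lpin2, by 0.08, and neither kept its call with TMM (0.057 and 0.030) or DESeq2 size factors (0.043 and 0.016). Agpat2, the next acyltransferase, was lower in Ripk3-/- cells (-0.31, SE 0.06, and -0.20, SE 0.06), as was the phosphatidate phosphatase Lpin3 without palmitate (-0.93, SE 0.26), at 0.176 against 0.331 FPKM. Its relative Lpin1 was 0.16 (SE 0.05) higher in treated Ripk3-/- cells.

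**Figure D4:**
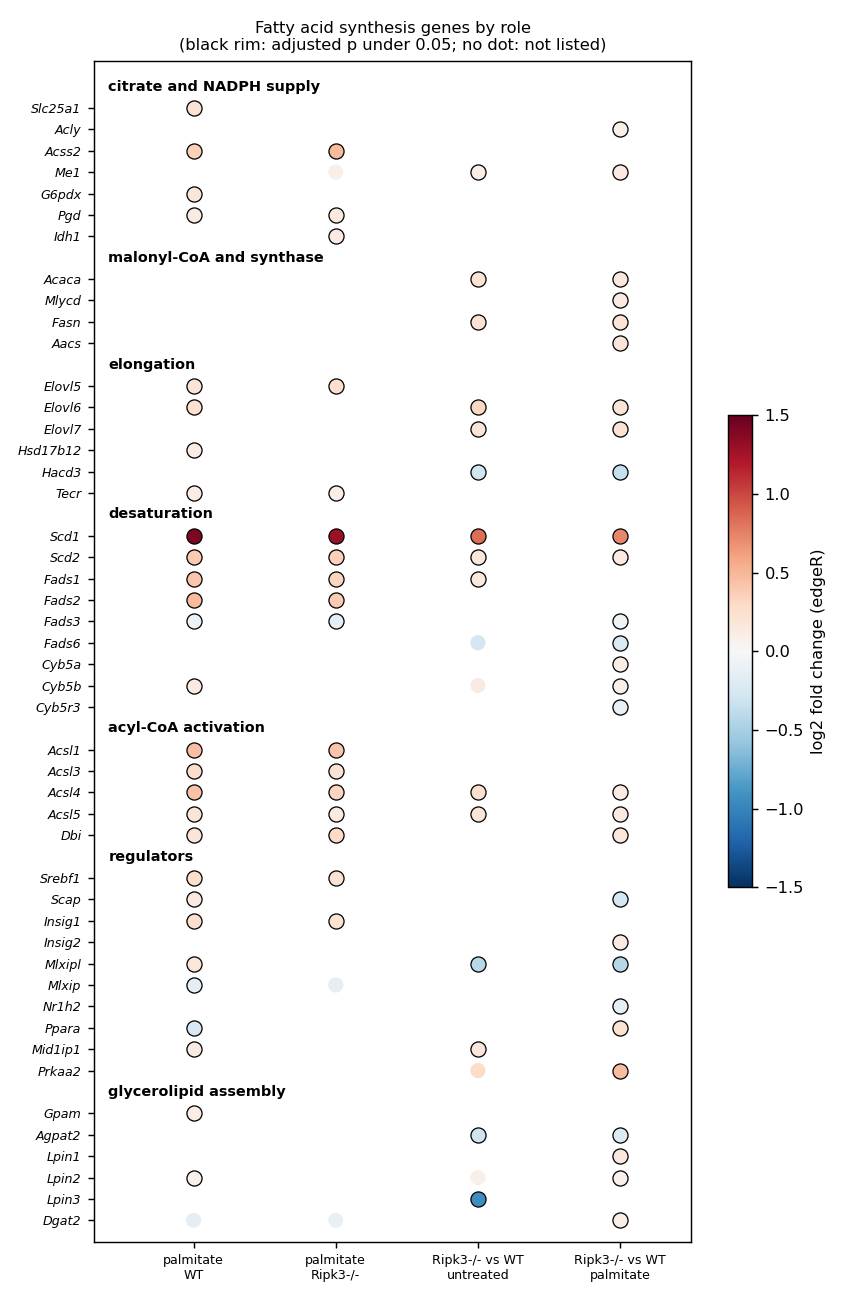
Log2 fold change (colour, red higher and blue lower) of the pathway genes called in at least 1 of the 4 comparisons (columns), by role. A black rim marks an edgeR adjusted p under 0.05 and an empty place a gene that the authors did not list. The malonyl-CoA and synthase block is empty for palmitate, but it holds too few genes to set against the share of all genes listed. All 5 acyl-CoA activation genes shown are red for palmitate with the authors' scaling.

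For comparison, cholesterol synthesis and uptake, the other pathway of the sterol regulatory element-binding proteins, had 11 of 23 genes called higher and 0 lower with palmitate in wild-type cells, and 4 and 0 in Ripk3-/- cells. For genotype it had 3 higher and 0 lower without palmitate, and 8 higher and 1 lower with it. In this order of comparisons the calls were 47.8%, 17.4%, 13% and 39.1% of the list. Of all genes tested 14.6%, 7.56%, 14.5% and 24.2% were called. Fatty acid oxidation had 9 of 30 higher and 3 lower with palmitate in wild-type cells, and 9 and 0 in Ripk3-/- cells. For genotype it had 4 and 1 without palmitate, and 10 and 3 with it. Its calls were 40%, 30%, 16.7% and 43.3% of the list in the same order. Whether the calls of these 2 lists depend on scaling was not tested.

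For KEGG terms, the authors' deposited table of palmitate in wild-type cells gave biosynthesis of unsaturated fatty acids 12 genes higher and 1 lower (the authors' adjusted p = 0.00413). In the authors' deposited table for Ripk3-/- cells it had 10 and 0 (adjusted p = 0.00928). The authors' deposited tables for genotype gave 7 and 6 without palmitate (adjusted p = 0.117) and 8 and 7 with it (adjusted p = 0.222). Fatty acid elongation had 9 higher and 1 lower for palmitate in wild-type cells (the authors' adjusted p = 0.0382) and 8 and 0 in Ripk3-/- cells (0.0387). For genotype the authors' adjusted p of that term was 0.552 without palmitate and 0.455 with it. For fatty acid biosynthesis, the authors' deposited tables gave adjusted p-values of 0.0931 and 0.171 for palmitate, and 0.541 and 0.692 for genotype. Fasn was among the genes of this term for genotype only.

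The genes whose pattern over the 20 libraries was most like each of the 4 were taken from 2755 genes with a mean of at least 50 normalised reads, by the root mean square difference of centred log2 values. For Fads1 they were Scd2 (0.05), Cpt1a, Acsl4, Fads2 and Acsl1 (0.07), where the median gene differed by 0.26. For Fasn they were Acaca (0.04), Jade1, Iqgap1, Cmtm4 and Trrap (0.06), against a median of 0.22. Elovl6 was nearest to Megf9 (0.06), St3gal1, Pola1, Ube3c and Dock4 (0.07), against 0.25. Genes near Scd1 included Cenpm (0.28), Cenpf (0.29), Cyp4a12a (0.33) and Mki67 (0.33), against 0.80. Among the 4 genes the closest pair was Elovl6 and Fasn (0.10), and Scd1 was 0.60 or more from each of the other three. The values were not scaled, so this measure also depends on how much a gene varies. The root mean square from a gene's own mean was 0.79 for Scd1, 0.20 for Fads1, 0.18 for Elovl6 and 0.13 for Fasn.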

How the data were processed

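Total RNA was sequenced from 20 libraries. The deposited tables list, per comparison, only genes past the authors' adjusted p of 0.05, with read counts per gene, normalised values (signal: the count divided by 1 size factor per library), FPKM, log2 fold changes and p-values, per the file headers. FastQC 0.11.9, HISAT2, featureCounts 1.5.0-p3, DESeq2 and mm10 are named in the submitters' processing notes; the sources used here give neither annotation nor strand setting. Raw counts were tested with edgeR 4.0.16 (quasi-likelihood, robust), using the authors' size factors, fitted to the listed genes only, and Benjamini-Hochberg adjustment over the number of genes the authors tested (12871 to 17611), worked out from the deposited p-values. That number rests on their ranks, and unlisted genes count as not called. The interaction, and members not listed in a comparison, came from 1 fit over 2993 genes with counts in all 20 libraries. Exact permutation tests used log2(normalised count + 1). Library totals implied by FPKM followed the size factors to within 0.448%, so they may not be raw read totals. Alternatives were DESeq2 1.42.0, limma 3.58.1 (pseudocounts 1 and 10), library totals, and TMM and DESeq2 scaling over the genes in each fit. The others were a mean count of at least 10, adjustment over listed genes only, the replicate block and leaving out each library. The fits were tested on simulated data. Named were the 4 members, called list genes (at most 4 per list, by size of change), the 5 genes most like each member, and Ripk3; 1 gene that this rule gives is not reported here. The members and lists were chosen with earlier results of these data known. Deposited enrichment values for KEGG terms were copied; those for GO terms were not used.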

Additional observations from a re-analysis of the deposited data

Results flagged for a closer look

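One value stood apart from its group. Elovl6 in untreated Ripk3-/- replicate 4 was at 2363 normalised reads, with a gap to the next library of 0.808 of the whole range of the 5 libraries. Among 20 groups of 5 tested this way chance flags about 1 in 20, and the cause was not tested.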

How the results depend on the processing

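All calls of members in tables that list them held, in direction and threshold, under every alternative run. Values from the fit over 20 libraries were less stable. Elovl6 for palmitate in Ripk3-/- cells was 0.084 with TMM and 0.068 with DESeq2 size factors, no longer called, and 0.098 to 0.16 leaving out each library. Fads1 for genotype with palmitate was 0.063 with TMM and 0.062 with DESeq2 size factors, no longer called, and 0.053 to 0.084 leaving out each library. Fasn for palmitate, never called, was -0.020 in wild-type cells with DESeq2 size factors, and in Ripk3-/- cells -0.032 with TMM, -0.047 with DESeq2 size factors and -0.042 to 0.040 leaving out each library. The Fasn interaction ranged from -0.072 to 0.011 leaving out each library. TMM and DESeq2 size factors centre the listed genes. They took pathway calls for palmitate in wild-type cells from 28 to 18 and 17, of which 17 and 16 were among the 28. In Ripk3-/- cells these calls went from 17 to 15 and 13, of which 13 and 11 were among the 17. For palmitate in wild-type cells the share of all called genes that were higher moved from 57.3% to 44.2% and 42%. In Ripk3-/- cells this share moved from 58.3% to 43.8% and 38%. With TMM it moved from 48.8% to 59.2% for genotype without palmitate. The fit over 20 libraries, with fewer genes, called 1256 genes for palmitate in wild-type cells against 2016 and 2379 for genotype with palmitate against 4259, but 1203 against 973 for palmitate in Ripk3-/- cells and 2413 against 2336 for genotype without palmitate. Interaction calls over the genes in that fit were 0, with 6 by DESeq2 and 4 with the replicate block. They were 0 to 2 leaving out each library, 2 without untreated Ripk3-/- replicate 1.

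Same-numbered libraries deviated together in only some pairs (correlations over 0.1 in 3 of 5 pairs for palmitate in wild-type cells, 4 in Ripk3-/- cells, and 1 for genotype in each treatment), so the numbers were not taken as pairs. With the replicate block no call of a member changed, and the pathway calls were 29, 17, 14 and 27. For Fasn, with 18184 to 26518 reads per library, the spread between libraries (coefficient of variation 2.41% to 8.42%) and not the depth limits what could be detected.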
